A study of Mus musculus with 10 samples.

Results

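Replication-dependent histone genes were examined in hematopoietic progenitor cells of mouse bone marrow. They were taken as the rows of the authors' deposited table whose symbol begins with Hist1h, Hist2h, Hist3h or Hist4h, which gave 65 of the 12791 genes. By the letters that follow, 5 encode the linker histone H1, 17 encode H2A, 19 encode H2B, 12 encode H3 and 12 encode H4. By cluster number, 52 belong to cluster 1, 10 to cluster 2 and 3 to cluster 3. One of the H2B members, Hist3h2bb-ps, is a pseudogene by its annotation, and Hist1h2ba is known as a testis-specific H2B.

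The cells came from C57BL/6 mice and were sorted by flow cytometry for c-Kit in the absence of lineage markers and of Sca-1, a gate that holds committed myeloid and erythroid progenitors. The 10 libraries fall into 3 naive libraries of mice with no tumor, 4 KDR-negative tumor libraries and 3 KDR-positive tumor libraries. Both tumor groups came from mice that carried the mouse glioma line GL261, taken at week 4. The protein KDR is a receptor of vascular endothelial growth factor, and the design text describes knockin mice in which GFP reports KDR, about 20000 sorted cells and RNA from those cells. Whether each library is a separate mouse or a pool the labels do not say, so the p-values may measure technical spread only.

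The authors' deposited table gives 2 comparisons, and for each gene its log2 fold change, its mean log2 CPM (counts scaled to library size), its p-value and the adjusted value (false discovery rate, FDR), and does not name the groups compared. They are called here the first and the second comparison, with a numerator and a denominator group, and a gene is called higher or lower in the numerator group at an FDR under 0.05. Levels derived from the means and fold changes matched between the denominator groups of both comparisons, with a median absolute difference of 0.0020 log2 over 9044 genes against 0.055 for the next best match of sides, so the comparisons are read as sharing their denominator group. No value per library, no replicate spread and no depth was analysed here.

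Histones package DNA: H2A pairs with H2B, H3 pairs with H4, and together they form the core around which DNA is wound, while H1 sits on the DNA between cores. The replication-dependent genes lie in clusters, are transcribed mainly while DNA is copied, and give messages that end in a short stem-loop instead of a poly(A) tail. The stem-loop is bound by the protein SLBP, which guides the cut at the end of the message, its translation and its decay. Some members are also known to give longer, polyadenylated messages, above all in cells that have stopped dividing. Bone marrow progenitors divide often, so histone messages are part of their normal RNA content.

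The stem-loop can be read in the members' annotated transcripts, and it is shown here because it is the feature that sets these messages apart and because it separates the H4 genes from the other classes. In the GENCODE M21 transcripts (GRCm38), a 16-base stem-loop of the known form followed the stop codon in 44 of the 65 members, 21 to 58 bases downstream with a median of 31. Its first arm read GGCTCT in all 33 members of the H1, H2A, H2B and H3 classes that had one, GGCCCT in 9 H4 genes and GGTCCT in 2 H4 genes. Of the 21 members without a match, 16 had transcript models with fewer than 60 bases after the stop codon, 4 (Hist1h2bc, Hist1h2bq, Hist1h2br and Hist2h2be) had 60 or more, and the pseudogene Hist3h2bb-ps has no annotated reading frame. The following stretches lie in the 3′ UTR, 5′ to 3′, with the stem-loop in capitals.
Hist1h4f (chr13:23551286-23551311, minus strand): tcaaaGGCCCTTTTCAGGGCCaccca
Hist1h4b (chr13:23757361-23757386, plus strand): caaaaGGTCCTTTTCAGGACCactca
Hist2h4 (chr3:96262934-96262959, minus strand): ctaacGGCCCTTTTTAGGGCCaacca
Hist2h2aa1 (chr3:96246027-96246052, plus strand): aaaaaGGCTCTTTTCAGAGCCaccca
Hist2h2ac (chr3:96220413-96220438, minus strand): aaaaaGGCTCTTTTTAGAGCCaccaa
Hist1h2ac (chr13:23683472-23683497, minus strand): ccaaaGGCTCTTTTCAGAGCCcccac
Hist1h2bk (chr13:22036295-22036320, plus strand): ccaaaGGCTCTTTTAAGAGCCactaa
Hist2h3c2 (chr3:96238480-96238505, minus strand): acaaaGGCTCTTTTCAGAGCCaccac
Hist1h1c (chr13:23739507-23739532, plus strand): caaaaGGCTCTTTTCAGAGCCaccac

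In the first comparison the histone genes stood far above most of the table. Of the 65 members, 49 were called higher in the numerator group, none was called lower and 16 were not called, against 18.8% of all 12791 genes called higher and 3.49% called lower. The median log2 fold change of the members was 2.10, with quartiles of 1.59 and 2.86, beside a median of -0.13 over all genes. Their log2 fold changes ran from -2.53 to 3.69, and 60 of 65 were above 0. Added over the members, the derived level was 840.2 CPM in the denominator group and 4334 CPM in the numerator group, which is 5.16 times as much.

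The derived levels of all genes together were also 2.81 times higher in the numerator group, so the values of this comparison are not scaled to a common total. As a share of the derived total, the members made up 0.111% in the denominator group and 0.204% in the numerator group. If the fold changes are set to equal totals, by taking off 1.49 log2, the members' median becomes 0.61 and that of all genes becomes -1.62. On that scale 47 of the 49 called members stay above 0, and the H4 gene Hist1h4i at -0.22 and the linker histone gene Hist1h1c at -0.73 turn to the other side. Among all genes called as deposited, 84.3% lay above 0 as deposited and 49.0% at equal totals. These are counts of sign over the deposited calls, and no gene was called anew at equal totals. Fewer cells of a type and less RNA per cell cannot be told apart in bulk RNA.

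**Figure D1:**
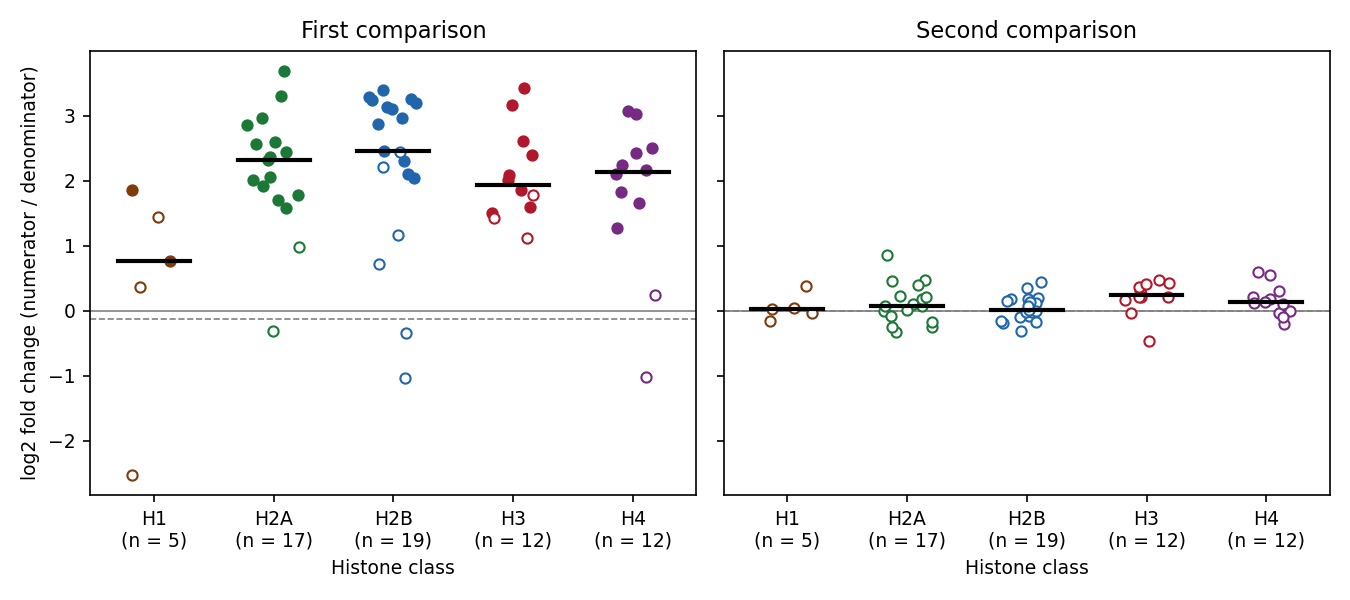
Each point is 1 histone gene, placed by its class (x axis, with the number of genes) and its log2 fold change (y axis) in the first (left) and second (right) comparison of the authors' deposited table; filled points are called at FDR under 0.05, thick bars are class medians and the dashed line is the median of all genes. In the first comparison the medians of the core classes lie between 1.94 and 2.46 and that of H1 at 0.76, which becomes -0.73 at equal totals; in the second every class median lies between 0.01 and 0.24 and no point is filled.

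The H2A genes, whose products pair with H2B in the nucleosome, were called higher in 15 of 17 cases with a median log2 fold change of 2.32. Hist2h2aa1 had a log2 fold change of 3.30 (FDR = 3.1e-21) in the table the authors deposited, with derived levels of 13.1 CPM in the denominator group and 129 CPM in the numerator group. By FDR, Hist1h2ah followed at 2.60 (FDR = 8.0e-18) and Hist1h2ad at 2.56 (FDR = 9.0e-17) in the authors' deposited table. The highest value of the class and of all members was Hist2h2aa2 at 3.69 (FDR = 2.5e-06), a near copy of Hist2h2aa1. The lowest was Hist1h2ac at -0.31 (FDR = 1), derived at 3.82 CPM in the denominator group and 3.09 CPM in the numerator group, and the other uncalled member was Hist3h2a at 0.98 (FDR = 0.12). The class sum went from 183.5 to 1040 CPM.

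The H2B genes had the widest spread among the core classes, with a median of 2.46 and 13 of 19 called higher. In the authors' deposited table the smallest FDR values of the class belonged to Hist1h2bn at a log2 fold change of 3.19 (FDR = 7.6e-21), Hist1h2bl at 3.24 (FDR = 1.6e-20) and Hist1h2bf at 3.10 (FDR = 1.6e-19). Hist1h2bl, for example, was derived at 17.6 CPM in the denominator group, 18.9 CPM in the numerator group of the second comparison and 166.5 CPM in that of the first. The highest of the class was Hist1h2ba at 3.39 (FDR = 1.1e-12) in the authors' deposited table, the gene named for the testis, derived at 4.2 CPM and 44.0 CPM in the denominator and numerator group. The pseudogene Hist3h2bb-ps, which makes no annotated protein, stood at 3.26 (FDR = 4.2e-04) in the same table. At the other end of the class were Hist2h2be at -1.03 (FDR = 0.35) and Hist2h2bb at -0.34 (FDR = 1), neither of them called. The class sum went from 267 to 1679 CPM, the largest ratio of any class at 6.29.

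All 12 H3 genes had values above 0 as deposited, from 1.12 to 3.43, and 9 were called higher, with a class median of 1.94. For Hist2h3b the authors' deposited table gave a log2 fold change of 3.16 (FDR = 2.4e-17), for Hist1h3b one of 2.60 (FDR = 1.9e-12) and for Hist1h3d one of 2.09 (FDR = 1.7e-07). The largest change of the class was that of Hist2h3c2 at 3.43 (FDR = 4.9e-06) in the authors' deposited table, derived at 1.99 CPM and 21.5 CPM. The smallest value was Hist1h3e at 1.12 (FDR = 0.058), and the uncalled Hist1h3f at 1.77 (FDR = 0.28) and Hist2h3c1 at 1.43 (FDR = 0.19) had derived denominator levels of 1.48 and 3.44 CPM. The class sum went from 89.4 to 420.0 CPM.

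The H4 genes, which in the mouse all encode the same protein, were called higher in 10 of 12 cases with a median of 2.14. Hist1h4f had a log2 fold change of 3.08 (FDR = 2.0e-19) in the table the authors deposited, the largest of the class, followed in FDR by Hist1h4n at 3.03 (FDR = 2.5e-17) and Hist1h4b at 2.51 (FDR = 4.5e-14). Hist1h4f was derived at 18.9 CPM in the denominator group and 160.2 CPM in the numerator group. Hist1h4m at -1.01 (FDR = 0.50) and Hist2h4 at 0.24 (FDR = 1) in the authors' deposited table were not called. The class sum went from 233.4 to 1085 CPM.

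The linker histones had a lower median than the core classes. Of the 5 H1 genes, Hist1h1c and Hist1h1e were called higher, a share of 40% beside 18.8% of all genes. The class median was 0.76 as deposited and -0.73 at equal totals. In the authors' deposited table Hist1h1c, known to make polyadenylated messages, had a log2 fold change of 0.76 (FDR = 0.039) with derived levels of 50.4 CPM and 85.4 CPM, and Hist1h1e, the highest of the class, had one of 1.86 (FDR = 0.048). Hist1h1a had the lowest value of all members at -2.53, from 6.24 CPM to 1.08 CPM, but did not pass (p = 0.039, FDR = 0.13) in the authors' deposited table. At an FDR under 0.01 no H1 gene would be called. Hist1h1b at 0.37 (FDR = 0.97) and Hist1h1d at 1.44 (FDR = 0.45) were not called either. The H1 sum rose least of all classes, from 66.9 to 110.0 CPM, a ratio of 1.64 that lies below the 2.81 of all genes together. Hist1h1c alone made up most of this sum in both groups, so the ratio mainly reflects that gene. The difference between classes was not tested.

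**Figure D2:**
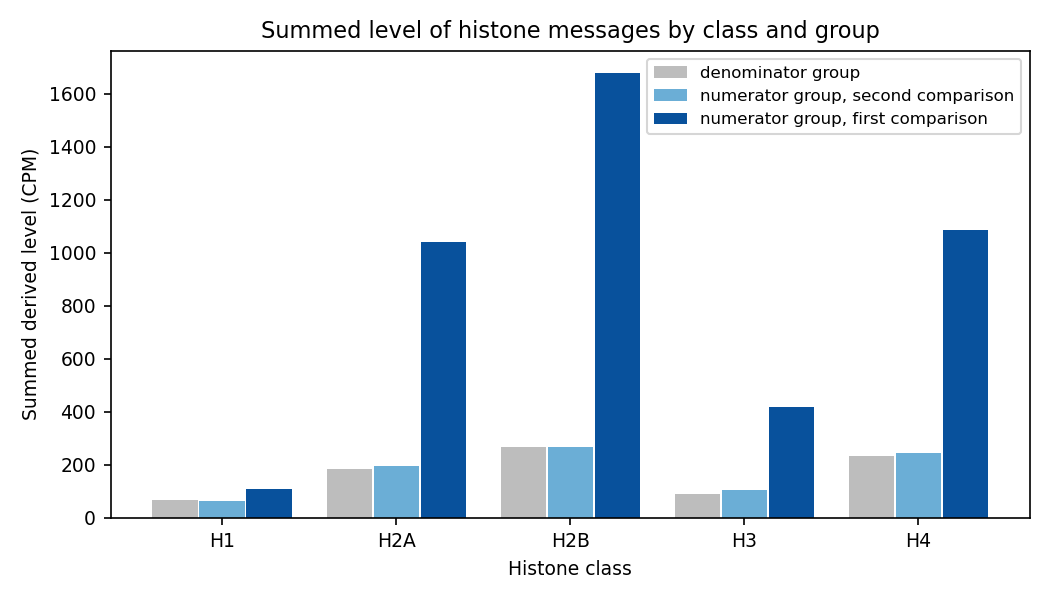
Bars give the derived CPM added over the genes of each histone class (x axis) in the denominator group and in the numerator groups of the second and first comparison; these are group values without replicates, so there are no error bars. In H2B the sum goes from 267 to 1679 CPM in the first comparison and to 268.5 CPM in the second, while H1 goes from 66.9 to 110.0 CPM, which is lower at equal totals.

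By cluster, 42 of the 52 genes of cluster 1 were called higher with a median of 2.14, 6 of the 10 genes of cluster 2 with a median of 2.39, and 1 of the 3 genes of cluster 3 with a median of 0.98, which becomes -0.51 at equal totals. In cluster 2 the calls differed among the classes. Its 4 H2A genes (Hist2h2aa1, Hist2h2aa2, Hist2h2ab and Hist2h2ac) were all called, with a median of 3.08, and 2 of its 3 H3 genes, Hist2h3b and Hist2h3c2, were called while Hist2h3c1 at 1.43 (FDR = 0.19) was not. Its H2B genes Hist2h2be and Hist2h2bb and its H4 gene Hist2h4 were not, with values of -1.03, -0.34 and 0.24 in the authors' deposited table. In cluster 3 the called gene was the pseudogene Hist3h2bb-ps, beside Hist3h2a at 0.98 and Hist3h2ba at 0.72, which were not called.

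The members were compared with genes of like level, since the fold change of the first comparison moved with level over the whole table. Between 4 and 5 log2 CPM in the denominator group, all 17 members were called higher with a median of 2.56, beside 9.33% of 3110 genes and a median of -0.36. Between 3 and 4 log2 CPM, 14 of 18 members were called with a median of 2.17, beside 8.95% of 1945 genes and a median of -0.54. Between 2 and 3 log2 CPM it was 11 of 15 with a median of 1.70, beside 12.3% of 1174 genes and a median of -0.49. Between 1 and 2 log2 CPM, 3 of 6 members were called with a median of 1.65, beside 13.4% of 897 genes and a median of -0.42. Between 0 and 1 log2 CPM, 1 of 6 was called with a median of 2.0, beside 11.8% of 764 genes and a median of -0.29. The 3 members between 5 and 6 log2 CPM were all called, with a median of 1.27, beside 15.9% of 2959 genes and a median of 0.11. Above 7 log2 CPM, where no member lies, the medians of all genes were 1.86 and 2.04 in the next steps of 1 log2 CPM.

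**Figure D3:**
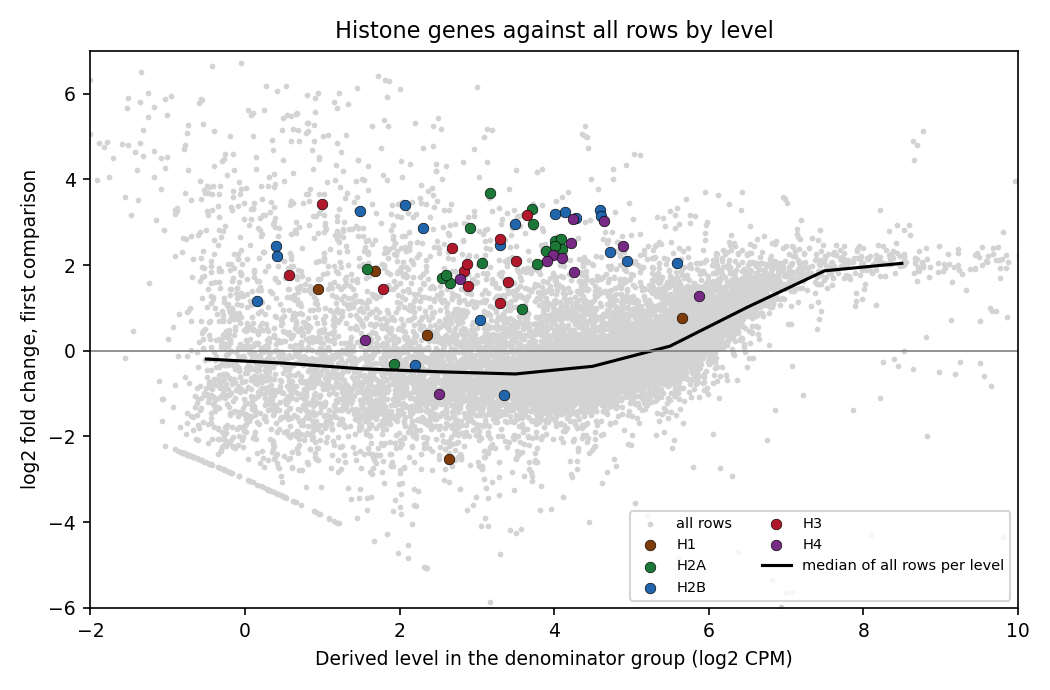
Each coloured point is 1 histone gene and each grey point another gene, by derived level in the denominator group (x axis, log2 CPM) and log2 fold change in the first comparison (y axis); the black line is the median of all genes in steps of 1 log2 CPM, and genes outside the axes are not drawn. Most histone genes lie above the black line, which runs between -0.54 and 0.11 over the levels where they are found; all fold changes shift down by 1.49 at equal totals.

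Many members are so alike that reads of one can be counted for another, which bears on the values of single genes. The 12 H4 genes encode 1 protein, the 12 H3 genes 2 proteins, the 17 H2A genes 8 and the 18 coding H2B genes 11, and the median identity of reading frames of equal length was 96.4% in H2A, 97.2% in H2B, 97.2% in H3 and 94.7% in H4. For shared sequence, 1 transcript model per gene was cut into 50-base windows, chosen as coding first, then by fewest exons and shortest length. The median member shared 52.3% of these windows with another gene. Hist2h2aa2, Hist1h2bq, Hist1h2br and Hist2h3c1 shared all of theirs, while Hist1h1a, Hist1h1b and Hist2h2be shared none. For Hist1h2bq and Hist1h2br the model cut was one of 381 bases, while their longest models have 2015 and 2197 bases. The sources used here do not state how the authors placed reads that match several genes.

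In 5 pairs the reading frames were identical, and their values in the authors' deposited table often stood apart. Hist1h4m was at -1.01 and Hist1h4n at 3.03 in the authors' deposited table. Hist2h3c1 was at 1.43 and Hist2h3c2 at 3.43. Hist1h2ao was at 1.77 and Hist1h2ap at 2.96, both called. The values were closer in Hist2h2aa1 and Hist2h2aa2, at 3.30 and 3.69, and in Hist1h2bq and Hist1h2br, at 2.45 and 2.22, of which the last pair was not called. The split between such copies is uncertain, and the sum of a pair says more than either gene. Of the 33 members with at least 50% of windows shared, 27 were called higher with a median of 2.44, and of the 32 with less, 22 were called with a median of 1.84. The 3 members with no shared window had values of -2.53, 0.37 and -1.03, and none was called.

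Among the members, those with short transcript models had the highest fold changes. Of 41 members whose longest transcript was under 700 bases, 38 were called higher, with a median of 2.44. Of 7 with 700 to 1000 bases, 4 were called, with a median of 1.27, and of 17 with more than 1000 bases, 7 were called, with a median of 1.77. Without H1, 5 of the 14 longest were called, with a median of 1.91. Among the other genes of the table, short protein-coding transcripts also stood above long ones. Without the histone genes, 57.2% of 131 protein-coding genes under 700 bases were called higher with a median of 1.25, 49.4% of 318 with 700 to 1000 bases with a median of 0.85, and 17.3% of 10409 longer ones with a median of -0.15. Lengths were taken only for genes whose symbol is in GENCODE M21. Over all of these without the histones, noncoding ones included, the middle length had the highest share. From short to long, 34.4% of 337, 46.1% of 382 and 17.2% of 10725 were called higher, with medians of 0.40, 0.78 and -0.15. Of 83 ribosomal protein genes, 78 were called higher, with a median of 2.03. The length groups were not matched for level, with which the fold change also moved, and the ribosomal protein genes were not taken out of them. What part transcript length has in the members' values was not tested.

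The place of the stem-loop followed the same line. It lies close behind the stop codon, so its distance to the transcript end largely restates the length of the model. Some stem-loops lay within 60 bases of the annotated end of a transcript, close to where processed histone messages are known to end. There 21 of 22 members were called higher with a median of 2.58, beside 18.8% of all genes. Where the model ran on for more than 60 bases, 13 of 22 were called with a median of 1.59. The median was 2.09 in the 44 members with a found stem-loop and 2.22 in the 21 without one, 16 of which have models with fewer than 60 bases after the stop codon. The 3 members listed for known polyadenylated messages had values of 2.04 for Hist1h2bc, 0.76 for Hist1h1c and -1.03 for Hist2h2be in the authors' deposited table. The length and distance limits were chosen after the values had been seen, so these counts are descriptions.

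**Figure D4:**
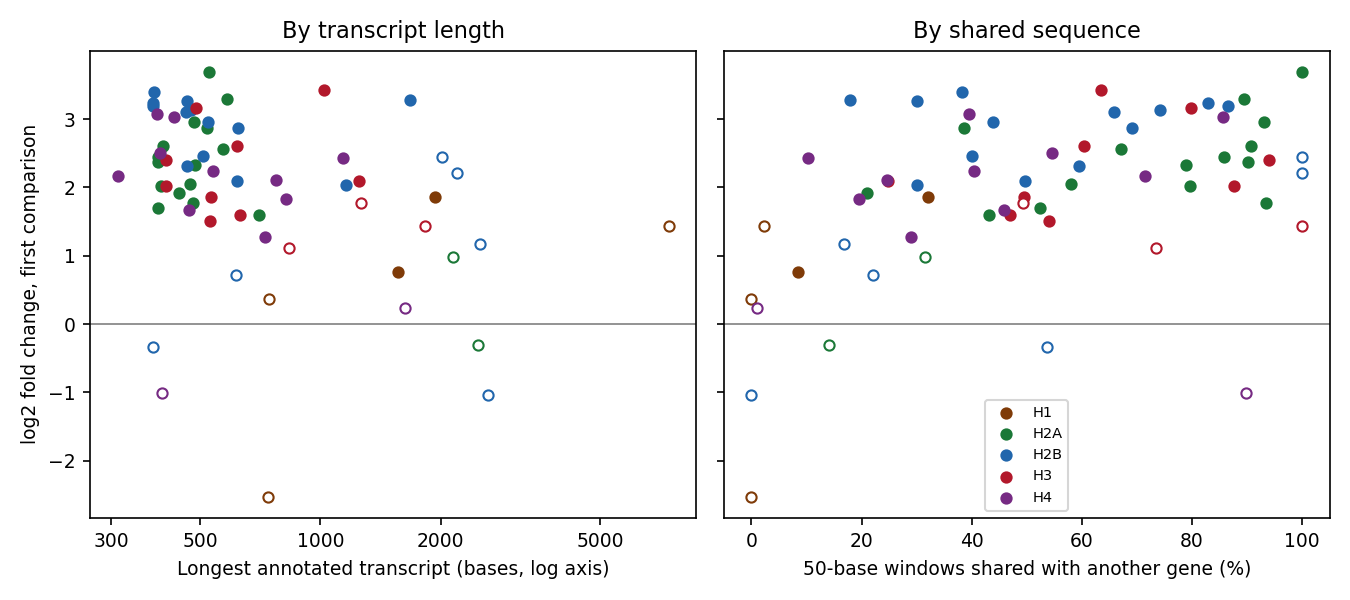
Points are histone genes coloured by class, filled where called, with the log2 fold change of the first comparison on the y axis. The left panel places them by the longest annotated transcript in bases (log axis). The right panel places them by the share of 50-base windows found in another gene, for 1 chosen transcript model per gene. The members under 700 bases lie between 1.5 and 3.69 except for 3 open points, while 10 of the 17 longest are open; at equal totals every point lies 1.49 lower.

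Neighbouring histone genes often start back to back from a shared stretch of DNA, and 13 such pairs of members lay less than 1000 bases apart, 12 of them an H2A with an H2B gene. In 7 pairs both genes were called higher, in the other 6 pairs 1 of the genes was. The log2 fold changes of partners differed by a median of 0.75, and 8 pairs differed by less than 1. Hist1h2ag and Hist1h2bj, 269 bases apart, were almost equal at 2.32 and 2.31 in the authors' deposited table, and Hist1h2ah at 2.60 and Hist1h2bk at 3.14 were both called. The widest gap was in Hist2h2ac at 2.86 and Hist2h2be at -1.03, with 238 bases between them. Hist1h2ac at -0.31 beside Hist1h2bc at 2.04, and Hist3h2a at 0.98 beside Hist3h2bb-ps at 3.26 in the authors' deposited table, were the next. In the first of these the member not called was the H2B gene, and in the others it was the H2A gene.

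**Figure D5:**
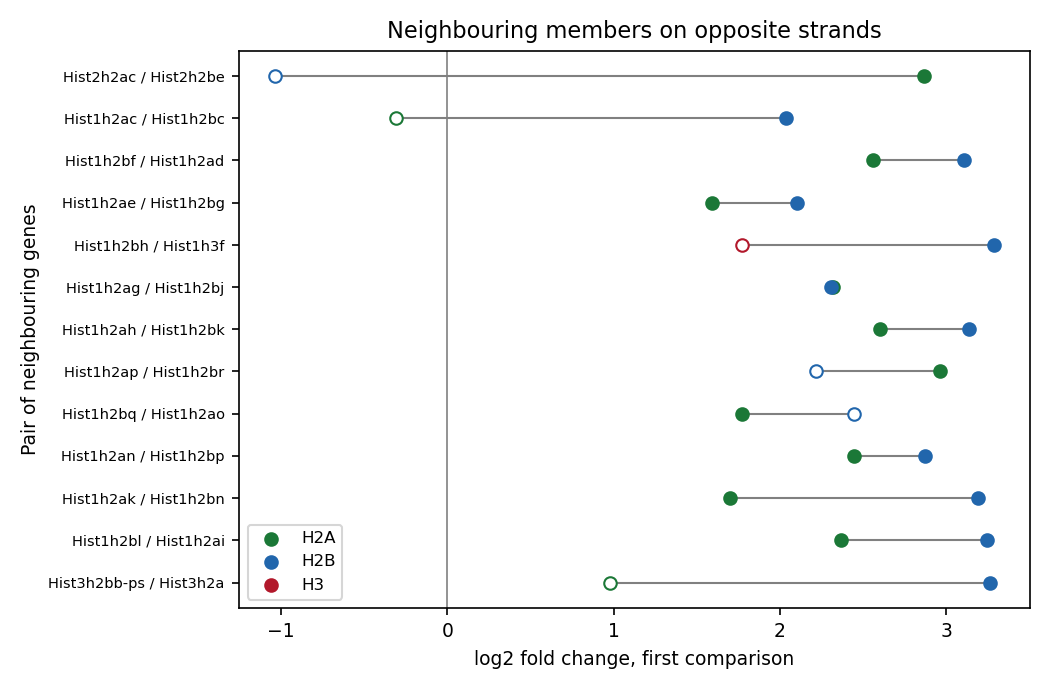
Each line joins the log2 fold changes (x axis) in the first comparison of 2 neighbouring histone genes transcribed away from each other, coloured by class and filled where called at FDR under 0.05. 10 lines have both ends above 1.5, and the pairs with Hist2h2be, Hist1h2ac and Hist3h2a have one end at -1.03, -0.31 and 0.98; all ends lie 1.49 lower at equal totals.

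Promoters were compared over 58 members that matched the RefSeq promoter table (GRCm38.p6), from 250 bases before to 50 bases after the start. The octamer ATTTGCAT, the known element of H2B promoters, was present on either strand in 22.4% of members against 1.97% of 27025 genes. It was found in 7 of 16 H2B and 6 of 16 H2A promoters and in none of the 26 others. CCAAT was present in 86.2% of members against 41.1% of all genes, in every H1, H2A, H2B and H3 promoter and in 3 of 11 H4 promoters. TATAAA was present in 58.6% against 15.7%. Windows of back-to-back genes can overlap, and a site on either strand then counts for both genes. Hist1h2ah and Hist1h2bk held the same octamer site, and so did Hist1h2ae and Hist1h2bg. The last letters of CCAAT can overlap the first of ATTTGCAT, and both are then counted. A match describes the sequence only.

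Within the family the octamer did not go with a higher fold change. The 13 members with ATTTGCAT had a median of 2.10 with 9 called higher, and the 45 without it had a median of 2.22 with 36 called. The H4 genes without CCAAT had a median of 2.14, and the 3 with it one of 2.25. The promoters of Hist1h2bk and Hist2h2ac, each from a back-to-back pair, and of Hist1h4f, the H4 gene with the largest change, show the range of layouts. Matches to the 3 motifs on either strand are in capitals, 5′ to 3′ along the gene.
Hist1h2bk (chr13:22035571-22035870, plus strand): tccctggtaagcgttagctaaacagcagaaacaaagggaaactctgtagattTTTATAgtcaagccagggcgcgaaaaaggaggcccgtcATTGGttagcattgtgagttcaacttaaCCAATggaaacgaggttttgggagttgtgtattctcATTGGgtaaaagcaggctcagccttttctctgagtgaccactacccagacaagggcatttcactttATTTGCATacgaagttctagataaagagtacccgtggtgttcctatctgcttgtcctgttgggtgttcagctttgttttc
Hist2h2ac (chr3:96220831-96221130, minus strand): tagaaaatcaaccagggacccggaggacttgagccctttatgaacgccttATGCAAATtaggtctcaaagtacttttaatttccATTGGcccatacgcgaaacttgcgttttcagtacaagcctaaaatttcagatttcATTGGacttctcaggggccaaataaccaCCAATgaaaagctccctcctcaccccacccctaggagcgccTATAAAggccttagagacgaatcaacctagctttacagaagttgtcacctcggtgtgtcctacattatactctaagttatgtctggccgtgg
Hist1h4f (chr13:23551619-23551918, minus strand): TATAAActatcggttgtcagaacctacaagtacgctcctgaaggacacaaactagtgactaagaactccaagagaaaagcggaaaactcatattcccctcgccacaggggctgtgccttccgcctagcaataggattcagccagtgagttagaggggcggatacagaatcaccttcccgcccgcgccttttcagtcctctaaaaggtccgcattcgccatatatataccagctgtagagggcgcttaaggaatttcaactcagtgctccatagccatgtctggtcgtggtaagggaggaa
The stretch of Hist1h2bk, called at 3.14, holds the octamer close to the start with CCAAT on both strands further up. That of Hist2h2ac, at 2.86, holds the octamer on the other strand far from its own start and toward Hist2h2be, a gene with no entry in the promoter table. That of Hist1h4f, at 3.08, holds neither, and TATAAA occurs only at the far end of its window.

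In the second comparison no histone gene was called in either direction, against 0.0704% of all genes called higher and 0.0391% called lower. None of the 65 members had an unadjusted p under 0.05. Only 43 of all 12791 genes did, so this does not set the members apart from other genes. The sources used here do not name the test program. The smallest p of a member in the authors' deposited table was 0.17 for Hist1h2ao, at a log2 fold change of 0.87 with an FDR of 1. The members' values ran from -0.47 for Hist2h3c1 to 0.87, with a median of 0.13 beside 0.00 over all genes, and 44 of 65 lay above 0. Class medians were 0.03 for H1, 0.08 for H2A, 0.01 for H2B, 0.24 for H3 and 0.13 for H4. The members' sum in the numerator group was 878.8 CPM, or 0.121% of the derived total.

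Side by side, Hist2h2aa1 was at 3.30 in the first and 0.01 in the second comparison of the authors' deposited table, Hist1h2bn at 3.19 and 0.35, Hist2h3b at 3.16 and 0.17, Hist1h4f at 3.08 and -0.03, and Hist1h1c at 0.76 and -0.15. The members with the largest first values, Hist2h2aa2 at 3.69 and Hist2h3c2 at 3.43, were at 0.47 and 0.42 in the second, neither of them called. Because the comparisons share their denominator group, no relation between them is given. The difference between the comparisons was not tested.

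The machinery that makes and destroys histone messages did not follow the messages as a group. Over all genes 18.8% were called higher, with a median of -0.13. Of 18 genes of histone mRNA processing and decay, 1, or 5.56%, was called higher, with a median of -0.15, near that of all genes. That gene was Slbp, the stem-loop binding protein, at 1.07 (FDR = 0.0012) in the authors' deposited table, derived at 120.9 CPM and 253.6 CPM, a change below the 1.49 of all genes together. Casp8ap2, a part of the histone locus body also known as FLASH, was at -1.06 (FDR = 0.081), and Srrt, which links capped RNA to processing, at 0.55 (FDR = 0.19) in the authors' deposited table. Of 12 genes of histone gene transcription 1, or 8.33%, was called, Nfyc at 1.42 (FDR = 2.4e-05), a subunit of the factor that binds CCAAT. Npat, the coactivator of histone genes under cyclin E and CDK2, was at -1.07 (FDR = 0.23), and the list median was -0.53. Yy1 and Cdc25a, next in p, were at 0.58 (FDR = 0.18) and -0.58 (FDR = 0.18) in the authors' deposited table.

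Next come histone genes listed as replication-independent, histone chaperones and the genes of DNA replication and mitosis. They are set here beside the 18.8% of all genes called higher and 3.49% called lower. Of 11 replication-independent histone genes 6 were called higher with a median of 1.03, led by H3f3b at 2.10 (FDR = 3.1e-12) and H3f3a at 2.08 (FDR = 6.8e-12), which encode H3.3, and H2afz at 2.07 (FDR = 5.8e-11) in the authors' deposited table. Of 21 histone chaperone genes 4 were called higher with a median of -0.10, a share of 19.0%, near that of all genes, among them Nap1l1 at 2.04 (FDR = 1.6e-09), Rbbp7 at 1.30 (FDR = 6.0e-05) and Rbbp4 at 1.03 (FDR = 5.7e-04) in the authors' deposited table. Of 44 DNA replication genes 10, or 22.7%, were called higher and 2 lower with a median of 0.06, also near the share of all genes, and the smallest p-values were those of Pcna, the sliding clamp, at 1.83 (FDR = 1.3e-09), Dut at 1.26 (FDR = 6.7e-05) and Tk1 at 1.17 (FDR = 4.7e-04). Of 25 genes of mitosis 9 were called higher and 1 lower with a median of 0.34, with the smallest p-values for Cks2 at 2.15 (FDR = 3.5e-09), Hmgb2 at 1.79 (FDR = 2.1e-07) and Cks1b at 1.44 (FDR = 9.7e-06) in the authors' deposited table. At equal totals the medians become -0.46 for the replication-independent histones, -1.59 for the chaperones, -1.43 for DNA replication and -1.16 for mitosis, and named genes with a value under 1.49 turn below 0. None of these lists held a called gene in the second comparison.

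Other RNAs also changed in the first comparison, in part against the direction of the histone messages. Their counts stand beside 18.8% of all genes called higher and 3.49% called lower. Of 6 genes listed for RNA forms without an ordinary poly(A) tail, 4 were called higher, with a median of 0.98 that becomes -0.52 at equal totals. The called ones were Rmrp at 2.80 (FDR = 2.8e-10), Rpph1 at 1.64 (FDR = 3.6e-06), Neat1 at 0.96 (FDR = 0.0087) and Malat1 at 0.69 (FDR = 0.044) in the authors' deposited table. Forms of 1 gene with and without a tail are not separated in these values. Of 81 small nucleolar and Cajal body RNA genes, 3 were called higher and 38 lower, with a median of -1.98. Snord12, Snord57 and Snord19 were at -14.31 (FDR = 2.8e-88), -14.02 (FDR = 1.7e-66) and -13.64 (FDR = 3.1e-62) in the authors' deposited table. Such values leave the numerator group at the floor, so their exact size is uncertain. The labels name an Illumina TruSeq RNA kit and 0.1 ug of total RNA and give no step that selects messages, so the sources used here do not tell which histone RNAs entered the libraries. The part of library preparation in the histone values was not tested.

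Markers of other cells moved as well, and are set beside the 18.8% of all genes called higher and 3.49% called lower. All 17 macrophage markers were called higher in the first comparison, with a median of 5.0 and a derived sum of 287.5 CPM in the denominator group, 5479 CPM in the numerator group and 168.7 CPM in that of the second comparison, with the smallest p-values for the complement genes C1qa, C1qc and C1qb at 5.0, 5.07 and 5.0 in the authors' deposited table. All 14 megakaryocyte and platelet markers, 8 of 11 late neutrophil markers and 6 of 11 late erythroid markers were called higher, while 9 of 13 B cell progenitor and 3 of 8 T and NK cell markers were called lower. Of the late erythroid markers 3 were lower, and of 10 mast cell, basophil and eosinophil markers 4 were higher and 3 lower. Of 6 endothelial and stromal markers 2 were higher. The late erythroid median of 1.37 becomes -0.13 at equal totals, and no marker list summed to 0 in either group. The part of these cells in the histone values was not tested.

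Of the genes of the sort, Kit, Ly6a and Kdr were looked at, and none of them was called. Kit, the receptor c-Kit, was at -0.60 (FDR = 0.13), Ly6a, which encodes Sca-1, at 0.43 (FDR = 0.40) and Kdr at 1.26 (FDR = 0.62) in the first comparison of the authors' deposited table. Kdr was derived at 0.94 CPM in the denominator group, 2.24 CPM in the numerator group of the first and 0.38 CPM in that of the second comparison, so its level does not tell which labelled group is which.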

How the data were processed

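Total RNA (0.1 ug) of sorted progenitors went into 10 libraries made, per the labels' protocols, with a TruSeq RNA kit of Illumina. Per the submitters' processing notes, Bowtie 0.12.2 and the build mm8 were used, with roles not given. The sources used here do not state the counting step or the test program.

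The single table used was deposited by the authors with log2 fold changes and mean log2 CPM values, read as base 2 from the match of derived levels. The p-values and false discovery rates were deposited by the authors and equal a Benjamini-Hochberg adjustment recomputed from them. It has no value per library, so no test was refitted and depth is unknown.

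Group levels were derived as mean divided by (w times fold + 1 - w), with w = 0.48 (first) and 0.59 (second) for the numerator group, fitted over genes of at least 3 log2 CPM. The fit was tested on simulated data. Transcripts came from GENCODE M21 and promoters from RefSeq (both GRCm38), and the table itself gives no coordinates. Of 70 GENCODE histone symbols 65 are members, and Hist1h1t, Hist1h2aa, Hist1h2aj, Hist1h2al and Hist4h4 were not analysed here. Of the members, 58 matched a promoter through current symbols and synonyms.

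The histone members, the gene lists and the rule for named genes were chosen with earlier results of these data known. In full are given the 3 members per class with the smallest p in the first comparison and the lowest and highest fold change per class, and of other lists the 3 smallest p with Slbp, Npat, Kit, Ly6a and Kdr. Python 3.11.15 with pandas 2.3.3, numpy 2.4.6 and matplotlib 3.10.9 was used. Alternatives varied the threshold, the adjustment, a level minimum, the centring and the members taken.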

Additional observations from a re-analysis of the deposited data

How the results depend on the processing

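The count of 49 histone genes called higher in the first comparison lay between 37 and 51 at an FDR of 0.01 or 0.1, with Holm adjustment, a mean of at least 2 log2 CPM, an absolute log2 fold change of at least 1, centring on the median of all genes, or without the pseudogene and testis member. Of these, 37 was with Holm adjustment. None was called lower in any of them. It was 21 when an absolute log2 fold change of at least 1 at equal totals was asked of the deposited calls. It was 22 among the 32 members with under 50% of windows shared, where fewer genes were counted. The median of 2.10 was 2.23 after subtracting the median of all genes, 2.22 after that of genes of like mean level, 2.54 after that of genes of like denominator level, 2.27 over members with a mean of at least 2 log2 CPM, 1.84 with under 50% of windows shared and 0.61 at equal totals. At equal totals Hist1h4i became -0.22 and Hist1h1c -0.73. Equal totals, denominator level and shared windows were chosen after seeing the data. In the second comparison none was called in any alternative run, and the medians lay between 0.08 and 0.17. Over single members and alternatives in the first comparison, 499 values kept their side of the threshold, 46 lost and 3 gained the call. In 2 more a called member turned direction. Turns of uncalled members were not counted there, and 15 members lay below 0 at equal totals against 5 as deposited. Depth limits what low members can show, and it is unknown here. No paired analysis was possible because the table gives no value per library, and libraries could not be left out in turn for the same reason.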
